A study of Mus musculus with 36 samples.

Results

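The genes described are SREBP-2, the sterol-regulated transcription factor encoded by Srebf2, the sterol sensor Insig2 and 8 enzymes of cholesterol synthesis (Hmgcs1, Idi1, Fdps, Fdft1, Sqle, Lss, Cyp51 and Dhcr7). These 10 genes were listed by name, and 9 of them had a probe set of their own among the 22180 genes measured. The only probe set of Idi1, the isomerase of the mevalonate branch, is annotated to Idi1 and Gm13502 alike, so no value is given for Idi1, and the enzymes below are the other 7. Livers of C57BL/6 mice were measured on Affymetrix arrays every 4 h at 6 Zeitgeber times from ZT 0 to ZT 20 (ZT, hours after lights on in a cycle of 12 h light and 12 h dark). TB mice carried p53fl/fl alleles, which Cre recombinase deletes, and bore lung adenocarcinoma; the comparison group was WT. Of the 36 arrays, 3 stood for each of 12 combinations of genotype and ZT. Age, sex, how Cre was delivered, what the WT mice received and the tumour burden were not given in the sources used here. The replicates are labelled as samples and not as separate mice, so every p-value rests on the spread between samples, which may be technical.

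SREBP-2 is made as a membrane precursor that the escort protein SCAP carries from the endoplasmic reticulum to the Golgi, where proteases release the active factor. INSIG proteins hold SCAP back when sterols are plentiful, so synthesis genes are switched on when sterols are scarce. The nuclear factor binds sterol regulatory elements in the promoters of nearly the whole pathway, often beside CCAAT and Sp1 boxes. The liver is the main organ of cholesterol synthesis and bile acid disposal, and in rodents this synthesis is known to follow feeding and the daily cycle. Transcript levels do not show how much of the SREBP-2 protein was processed.

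Promoter sequences were searched for the letters of sterol regulatory elements, CCAAT boxes and Sp1 boxes. RefSeq promoter windows of GRCm38.p6, 300 bases that run from 250 before to 50 after a transcript start, were held for 7 of the 10 genes (all but Fdps, Fdft1 and Sqle). Bases before the start are printed 5′ to 3′ on the strand of the gene, with capitals at the sterol element TCACNCCAC or its looser form TCACNNCA, at CCAAT and at the Sp1 box GGGCGG, on either strand. They are the stretches chr15:82147069-82147268 (plus strand) for Srebf2, chr1:121332663-121332789 (minus strand) for Insig2, chr13:119690151-119690350 (plus strand) for Hmgcs1 and chr5:4104698-4104897 (minus strand) for Cyp51. The Insig2 stretch ends 74 bases before the start because the gene model reaches further up than that transcript.
Hmgcs1: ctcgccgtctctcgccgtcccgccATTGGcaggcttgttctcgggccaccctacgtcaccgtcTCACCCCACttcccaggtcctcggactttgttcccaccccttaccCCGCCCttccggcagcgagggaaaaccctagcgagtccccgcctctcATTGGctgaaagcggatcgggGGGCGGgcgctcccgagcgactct
Srebf2: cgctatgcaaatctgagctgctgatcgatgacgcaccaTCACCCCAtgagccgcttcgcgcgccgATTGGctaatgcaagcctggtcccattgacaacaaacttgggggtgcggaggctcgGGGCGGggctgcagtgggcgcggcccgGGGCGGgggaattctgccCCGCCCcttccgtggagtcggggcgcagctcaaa
Cyp51: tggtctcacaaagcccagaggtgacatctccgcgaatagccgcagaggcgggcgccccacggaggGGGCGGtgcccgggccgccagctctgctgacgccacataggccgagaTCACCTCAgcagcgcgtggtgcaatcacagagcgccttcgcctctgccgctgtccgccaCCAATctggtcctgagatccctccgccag
Insig2: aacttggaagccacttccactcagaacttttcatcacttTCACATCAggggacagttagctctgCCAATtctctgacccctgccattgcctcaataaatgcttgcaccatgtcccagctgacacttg
The full element TCACNCCAC stood in a window of Hmgcs1 alone among the 7, at 137 to 129 bases before the start. Of all 27025 genes with a window, 1.44% held it in at least 1 window. The looser TCACNNCA, which contains every match of the longer form and was added after these windows had been read, stood in 5 of 7 (Srebf2, Hmgcs1, Cyp51, Dhcr7 and Insig2) against 15.7% of all genes. In Srebf2 it lay at 162 to 155 bases before the start, in Insig2 at 161 to 154 and in Cyp51 at 88 to 81, and those 3 promoters were added to the display for it. CCAAT stood in 7 of 7 and in 41.1% of all genes, and GGGCGG in 7 of 7 and in 38.2%. The E-box CACGTG, the letters read by the clock activators, stood in a window of Dhcr7 only, against 8.09% of all genes. These matches are letters in a window and were not tested as binding sites.

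The values are the authors' probe set intensities, used here as log2(intensity + 16) and called log2 levels, so that differences are log2 fold changes slightly understated for dim genes. No member was under 16 intensity units on any array. Correlations between arrays of a group ran from 0.928 to 0.989, and the number of arrays limits the precision. The labelled tissue held its markers, with a mean log2 level of 12.5 to 12.7 over 6 hepatocyte genes on every array. The clock genes followed the labelled times in both genotypes, with fitted peaks at ZT 22.4 in WT and 22.1 in TB for Arntl, at 7.76 and 6.92 for Nr1d1 and at 10.5 and 10.1 for Dbp. The array WT ZT 12 replicate 3 held skeletal muscle transcripts: the mean of 5 muscle markers was 14.7 there and at most 6.71 on the other arrays, with Ttn at 16.8 against a median of 5.45. On that array the 6 hepatocyte markers averaged 12.6, the 5 Kupffer cell markers 6.64, the lowest of all arrays, and the 4 stellate cell markers 8.42, against at most 7.53 elsewhere. The stellate list includes Des, the desmin gene, which muscle expresses as well, so its mean does not stand apart from the muscle markers. In a bulk sample, fewer cells of a type and less RNA per cell cannot be told apart. The arrays also fell into a larger set of 24 and a smaller set of 12, with 1 array of each group in the smaller set, and 6787 genes (30.6%) differed between the sets; of the members Lss did, at −0.30 ± 0.115 log2 (SE, smaller minus larger; limma adjusted p = 0.0458). The meaning of these sets was not tested.

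**Figure D1:**
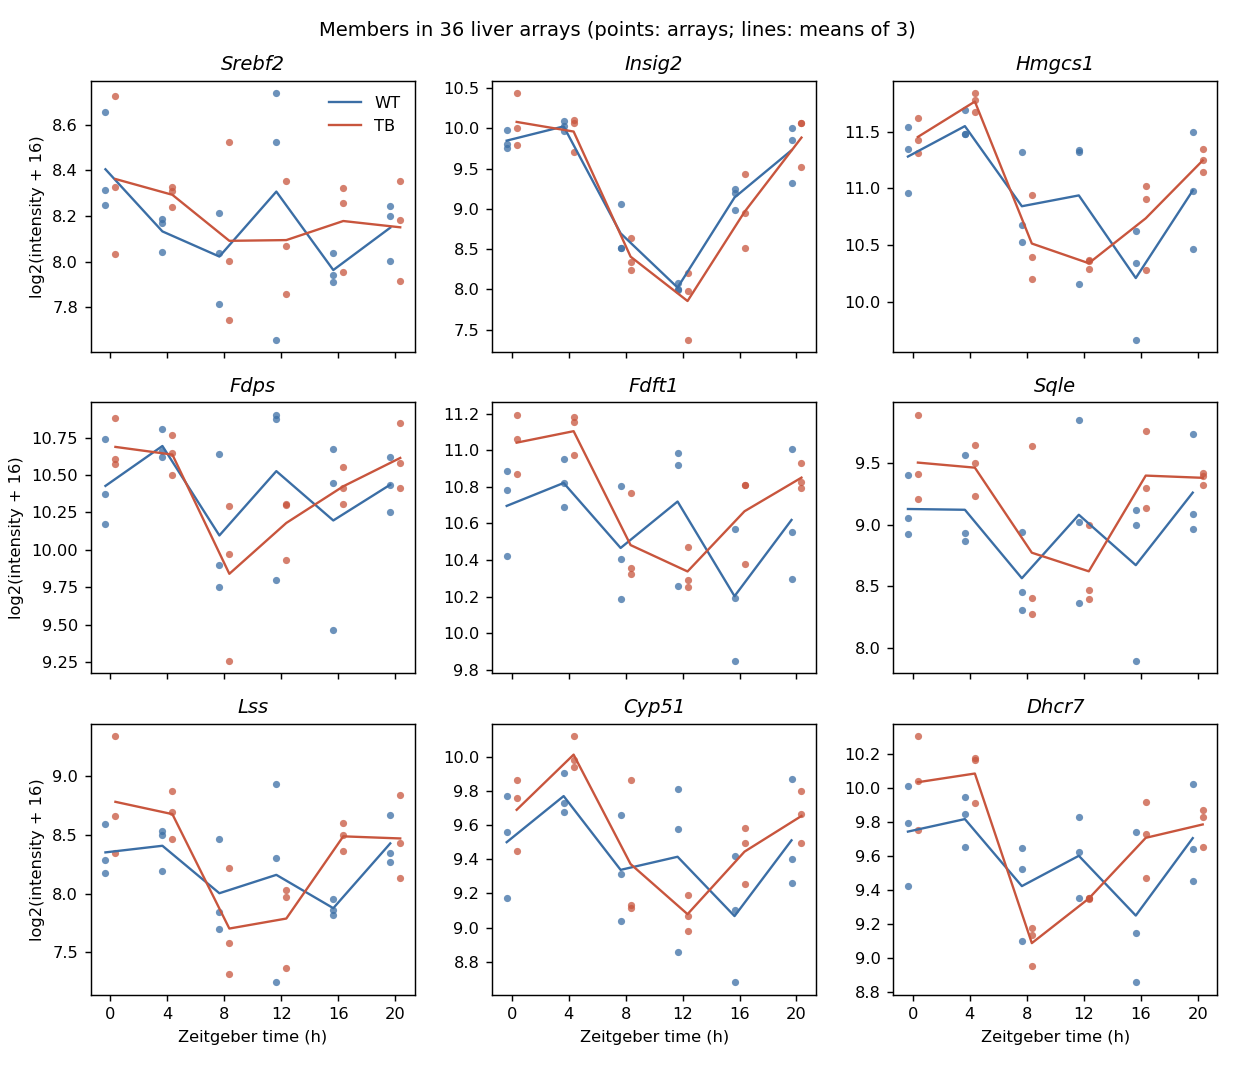
Log2 level, log2(intensity + 16), of the 9 measured members against Zeitgeber time (h). Points are the 36 arrays, blue for WT and red for TB, and lines join the means of 3 arrays. Insig2 falls from near 10 at ZT 4 to about 8 at ZT 12 in both genotypes, while single WT arrays at ZT 12 and ZT 16 lie far below their group in most enzymes.

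Insig2, which retains SCAP in the endoplasmic reticulum, was the member with the largest daily change in either genotype. In WT the 3 arrays read 9.97, 9.81 and 9.76 log2 at ZT 0 and 9.96, 10.08 and 10.02 at ZT 4. They read 8.51, 8.52 and 9.06 at ZT 8 and 8.00, 8.07 and 8.00 at ZT 12. By ZT 16 they were back at 8.99, 9.19 and 9.24, and at ZT 20 at 10.00, 9.85 and 9.33. The low arrays were thus those around lights off, and no WT array of ZT 8 or ZT 12 reached the level of any WT array of ZT 0, 4 or 20. In TB the arrays read 9.79, 10.43 and 10.01 at ZT 0 and 10.07, 10.10 and 9.71 at ZT 4. They fell to 8.64, 8.34 and 8.25 at ZT 8 and to 7.38, 8.21 and 7.99 at ZT 12, and stood at 8.95, 9.43 and 8.51 at ZT 16. At ZT 20 they read 10.07, 9.52 and 10.06, so the TB livers were likewise lowest at ZT 8 and ZT 12 and overlapped the WT livers at each of the 6 times. A 24 h cosine gave an amplitude (height above the mean) of 0.93 ± 0.114 log2 in WT and 1.16 ± 0.114 in TB (SE, n = 18 arrays each). The fitted peaks were at ZT 23.8 and ZT 23.5, a peak-to-trough ratio of 3.61 and 5.00. Both rhythms passed the limma F test (adjusted p = 3.42e-06 in WT and 4.64e-08 in TB, Benjamini-Hochberg over 22180 genes). The test of equal cosine terms did not separate the genotypes (adjusted p = 0.986).

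Srebf2 itself did not pass a rhythm test in either genotype. Its log2 level ran from 7.66 through a median of 8.18 to 8.74 over the 18 WT arrays and from 7.75 through 8.25 to 8.72 over the 18 TB arrays. The fitted amplitudes were 0.083 ± 0.085 in WT (limma adjusted p = 0.897) and 0.12 ± 0.085 in TB (adjusted p = 0.745). Both extremes of WT fell in the same group, ZT 12, where the arrays read 8.74, 8.53 and 7.66, the last being the array with muscle transcripts. Without that array the ZT 12 difference (TB minus WT) of Srebf2 was −0.54 ± 0.193 log2 (limma adjusted p = 0.478) in place of −0.21 ± 0.208.

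Hmgcs1, the cytosolic synthase at the entry of the mevalonate pathway, was the only enzyme called rhythmic in both genotypes. In WT it read 10.96, 11.54 and 11.34 log2 at ZT 0, and 11.69, 11.48 and 11.48 at ZT 4. At ZT 8 the values were 10.53, 10.68 and 11.32, while the ZT 12 arrays read 11.32, 11.34 and 10.16. At ZT 16 they were 10.62, 9.67 and 10.34, the lowest WT group, and at ZT 20 they were 10.98, 11.50 and 10.47. The WT arrays of 1 time thus spread widely, by more than 1 log2 unit at ZT 12, where the low array is again replicate 3. In TB it read 11.31, 11.43 and 11.62 at ZT 0 and 11.78, 11.84 and 11.68 at ZT 4. They dropped to 10.95, 10.20 and 10.40 at ZT 8 and 10.36, 10.37 and 10.29 at ZT 12. They stood at 11.02, 10.91 and 10.28 at ZT 16 and at 11.25, 11.34 and 11.14 at ZT 20. The TB minimum came at ZT 12 with an SD of 0.0467, and all 6 arrays of TB ZT 0 and ZT 4 lay above all 6 of TB ZT 8 and ZT 12. The amplitude was 0.50 ± 0.124 log2 in WT, with a peak at ZT 2.93, and 0.67 ± 0.124 in TB, with a peak at ZT 0.49. The limma adjusted p was 0.0269 in WT and 0.00184 in TB. The WT call was lost without WT ZT 12 replicate 3 (adjusted p = 0.0540) and in 6 other fits without 1 array (WT ZT 0 replicate 2, each array of WT ZT 4, and WT ZT 16 replicate 2 or 3), with adjusted p between 0.00734 and 0.112 over all alternatives.

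Of the later steps, the squalene and lanosterol enzymes Fdft1 and Lss and the last enzyme of the list, Dhcr7, were called rhythmic in TB and not in WT. Fdft1, squalene synthase, the step that commits farnesyl units to sterols, had an amplitude of 0.37 ± 0.086 log2 in TB (limma adjusted p = 0.0192) and 0.18 ± 0.086 in WT (adjusted p = 0.478). Lss, which closes the sterol rings, had 0.52 ± 0.124 in TB (adjusted p = 0.0240) and 0.23 ± 0.124 in WT (adjusted p = 0.599). Dhcr7, which reduces 7-dehydrocholesterol to cholesterol, had 0.42 ± 0.091 in TB (adjusted p = 0.0100) and 0.21 ± 0.091 in WT (adjusted p = 0.407). Dhcr7 shows the TB pattern most plainly. Its 3 TB arrays read 10.04, 9.76 and 10.30 at ZT 0 and 10.16, 10.18 and 9.91 at ZT 4. They were 9.18, 8.95 and 9.14 at ZT 8 and 9.35, 9.35 and 9.35 at ZT 12, lower than before, then 9.92, 9.73 and 9.47 at ZT 16 and 9.87, 9.83 and 9.66 at ZT 20. No TB array of ZT 8 or ZT 12 reached any TB array of the other 4 times. In WT the same gene read 9.43, 10.01 and 9.79 at ZT 0, 9.95, 9.85 and 9.65 at ZT 4 and 9.10, 9.52 and 9.65 at ZT 8. It read 9.83, 9.62 and 9.35 at ZT 12, 9.74, 8.86 and 9.15 at ZT 16 and 9.45, 10.02 and 9.64 at ZT 20, with overlap between nearly all times. The calls of Dhcr7, Hmgcs1 and Insig2 in TB passed with each of the 36 arrays left out. Fdft1 was lost without TB ZT 0 replicate 3 or TB ZT 12 replicate 2, and Lss without TB ZT 0 replicate 1, TB ZT 8 replicate 2 or 3, or TB ZT 12 replicate 3.

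The remaining enzymes did not pass in either genotype. Cyp51, the lanosterol demethylase, had an amplitude of 0.35 ± 0.095 log2 in TB (limma adjusted p = 0.0533) and 0.23 ± 0.095 in WT (adjusted p = 0.336), and it passed in TB in 9 of the 36 fits without 1 array. Fdps, which makes farnesyl diphosphate, had 0.37 ± 0.117 in TB (adjusted p = 0.135) and 0.12 ± 0.117 in WT (adjusted p = 0.892). Sqle, the oxygen-dependent squalene epoxidase, had 0.44 ± 0.142 in TB (adjusted p = 0.153) and 0.22 ± 0.142 in WT (adjusted p = 0.714).

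In all, 2 of 9 members were called rhythmic in WT, where 6.45% of all genes were, and 5 of 9 in TB, where 4.95% of all genes were. At an unadjusted p under 0.05 the members numbered 2 in WT and 8 in TB, against 3725 genes (16.8%) in each genotype. The median amplitude of the 7 enzymes was 0.22 log2 in WT and 0.42 in TB, against 0.086 and 0.089 for all genes. The fitted amplitude was larger in TB for 9 of 9 members, and for 50.4% of all genes. Most members vary together between arrays, so these counts are not 9 separate observations. A call in TB beside none in WT is not a difference between them: the limma test of differential rhythm called 0 of 22180 genes (1065 genes, 4.80%, and none of the members at an unadjusted p under 0.05). The smallest p of a member in that test was 0.0892 for Hmgcs1. Fitted peaks in TB were earlier than in WT for all 9 members, with shifts (TB minus WT) between −3.28 h for Fdps and −0.056 h for Srebf2, but most WT peaks belong to rhythms that did not pass. The clock genes Arntl (−0.27 h), Nr1d1 (−0.84 h) and Dbp (−0.36 h) were fitted earlier in TB as well. The share of all genes with an earlier peak was not counted, so the shift is not shown to be particular to the members.

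**Figure D2:**
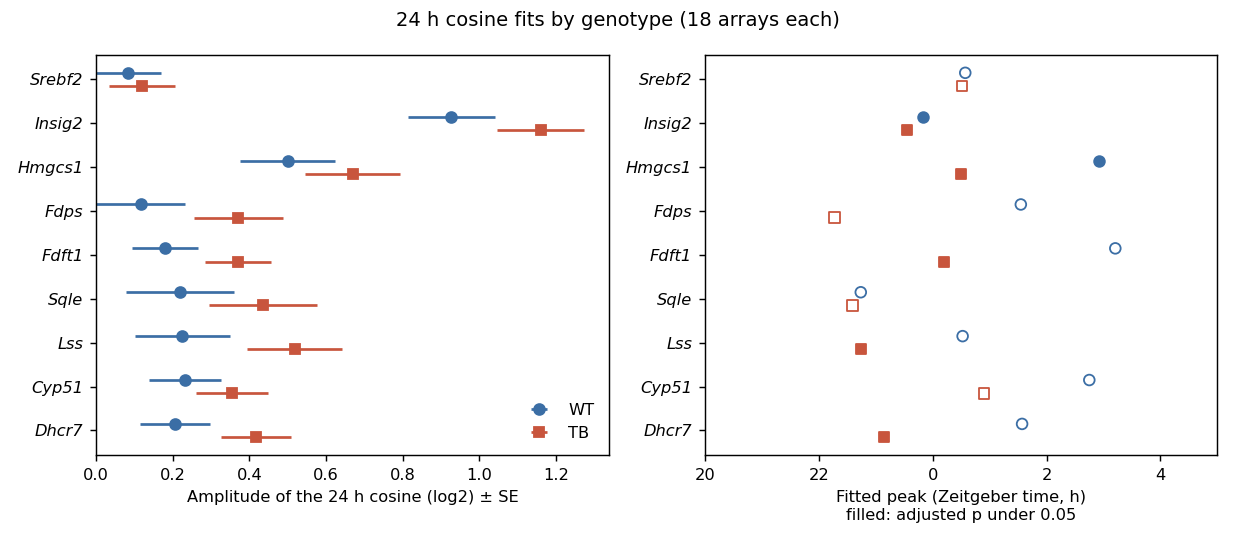
Left, amplitude of the fitted 24 h cosine (log2) with its SE for each measured member, in WT (blue circles) and TB (red squares), 18 arrays each. Right, the fitted peak as Zeitgeber time (h), filled where the limma adjusted p was under 0.05. All 9 TB amplitudes lie to the right of the WT ones, and 2 peaks in WT and 5 in TB are filled.

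Averaged over the 6 times, no member passed the test of a difference between tumour-bearing and WT livers. Sqle had the largest difference (TB minus WT), 0.22 ± 0.139 log2 (SE, n = 18 per genotype; limma adjusted p = 0.585), and was higher in TB at 5 of 6 times. Fdft1 followed with 0.16 ± 0.081 (adjusted p = 0.471), with a 95% interval from −0.0058 to 0.32, also higher at 5 of 6 times. Lss differed by 0.11 ± 0.120 (adjusted p = 0.774; 0.037 without WT ZT 12 replicate 3), Cyp51 by 0.11 ± 0.090 (adjusted p = 0.70) and Dhcr7 by 0.085 ± 0.078 (adjusted p = 0.731). These 3 enzymes work after squalene, as Sqle does. Hmgcs1 differed by 0.043 ± 0.113 (adjusted p = 0.928) and Fdps by 0.0012 ± 0.113 (adjusted p = 0.999). Srebf2 differed by 0.032 ± 0.085 (adjusted p = 0.929), with an interval from −0.14 to 0.21, and Insig2 by −0.052 ± 0.089 (adjusted p = 0.880). Thus 0 of 9 members were called, where 0.117% of all genes were called higher and 0.0586% lower in TB; at an unadjusted limma p under 0.05 there were 2449 genes (11.04%) and no member. The differences of the 7 enzymes were positive for 7 of 7, with a median of 0.11 log2, against a median of 0.0073 and 53.8% positive for all genes. Without WT ZT 12 replicate 3 those of Hmgcs1 (−0.022) and Fdps (−0.060) were negative. The other enzymes then lay between 0.037 (Lss) and 0.16 (Sqle). The enzymes vary together between arrays, so a common sign is not 7 separate observations. The smaller array set gave differences between −0.10 (Fdps) and 0.12 (Cyp51) for the enzymes, and the larger set between 0.042 (Hmgcs1) and 0.28 (Sqle).

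Time by time, the 7 enzymes had the same sign at 4 of the 6 times and differed in sign at ZT 4 and ZT 8. At ZT 0 all 7 were higher in TB, with a median difference of 0.29 log2, and at ZT 4, 6 of 7 were, with a median of 0.27. The sign then turned. At ZT 8 the median was −0.26, with 3 of 7 higher. At ZT 12 all 7 were lower in TB, between −0.60 for Hmgcs1 and −0.25 for Dhcr7, with a median of −0.37. At ZT 16 all 7 were higher, between 0.23 for Fdps and 0.73 for Sqle, with a median of 0.46, and at ZT 20 all 7 again, with a median of 0.14. The median difference over all genes stayed between −0.019 and 0.022 at the 6 times. The 7 enzymes vary together between arrays, so a common sign at a time is not 7 separate observations.

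None of these differences passed. Limma called 0 of 9 members at each of the 6 times, the smallest adjusted p being 0.648, for Hmgcs1 at ZT 12. Over all genes it called 0 at 5 times (0% of genes), and at ZT 8 it called 1 gene lower (0.00451%) and none higher. At an unadjusted limma p under 0.05 there was 1 member at ZT 12 (Hmgcs1), against 1644 genes (7.41%). At ZT 16 there were 4 (Fdft1, Sqle, Lss and Dhcr7), against 1194 genes (5.38%). No member was under 0.05 at ZT 0, 4, 8 or 20, against 4.74%, 3.26%, 5.30% and 1.81% of genes. Without WT ZT 12 replicate 3 the count at ZT 12 was 7 of 9 members, all but Insig2 and Dhcr7, against 1942 genes (8.76%), and no gene passed after adjustment. The F test of a difference that depends on time called 0 of 22180 genes; at an unadjusted p under 0.05 it gave 550 genes (2.48%), with Dhcr7 as the only member. Without WT ZT 12 replicate 3 it gave 710 genes (3.20%) and 5 members (Hmgcs1, Fdft1, Lss, Cyp51 and Dhcr7), and again no gene passed after adjustment.

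The single arrays show how the ZT 16 and ZT 12 differences arise. At ZT 16 Sqle read 9.12, 7.89 and 9.00 log2 in WT and 9.76, 9.30 and 9.14 in TB. Lss read 7.86, 7.82 and 7.95 in WT and 8.60, 8.36 and 8.5 in TB, with replicates close together in both groups. Fdft1 read 10.57, 9.85 and 10.19 in WT and 10.81, 10.81 and 10.38 in TB, and these overlap. All 3 TB arrays lay above all 3 WT arrays for 2 of 9 members at ZT 16 (Sqle and Lss), where 7.98% of all genes did so, and for 3 of 9 at ZT 4 (Srebf2, Fdft1 and Cyp51), where 4.80% did. Otherwise no member lay wholly on 1 side. Of all genes, 4.27% at ZT 0, 3.54% at ZT 8, 6.79% at ZT 12 and 3.26% at ZT 20 had all TB arrays above all WT arrays. All TB arrays lay below for 2.2%, 4.58%, 5.85%, 4.26%, 5.36% and 3.3% of genes from ZT 0 to ZT 20. At ZT 12 Lss read 8.93, 8.30 and 7.24 in WT and 8.03, 7.97 and 7.36 in TB. Fdps read 10.90, 10.88 and 9.80 in WT and 10.31, 10.30 and 9.93 in TB. In both genes the WT group straddled the TB group, because replicate 3, the array with muscle transcripts, was low. Without it the median difference of the 7 enzymes at ZT 12 went from −0.37 to −0.71 log2, and Hmgcs1 stood at −0.99 ± 0.267 (limma adjusted p = 0.430). Fits without WT ZT 12 replicate 3 keep no WT array of the smaller array set at ZT 12. TB ZT 12 replicate 3 belongs to that set, so the array set enters their ZT 12 differences. The part of the muscle, stellate and Kupffer cell marker levels of WT ZT 12 replicate 3 in these values was not tested.

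Within the array sets the 2 times behaved differently. At ZT 12 the larger set gave differences from −0.96 (Hmgcs1) to −0.37 (Dhcr7) for the 7 enzymes, and the smaller set, whose WT array is the one with muscle transcripts, from −0.0058 (Dhcr7) to 0.21 (Cyp51). At ZT 16 the larger set gave 0.40 (Fdps) to 0.77 (Sqle), and the smaller set −0.12 (Fdps) to 0.74 (Lss), with 6 of 7 positive. The smaller set holds 1 array of each group, so its values carry no replicate check.

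**Figure D3:**
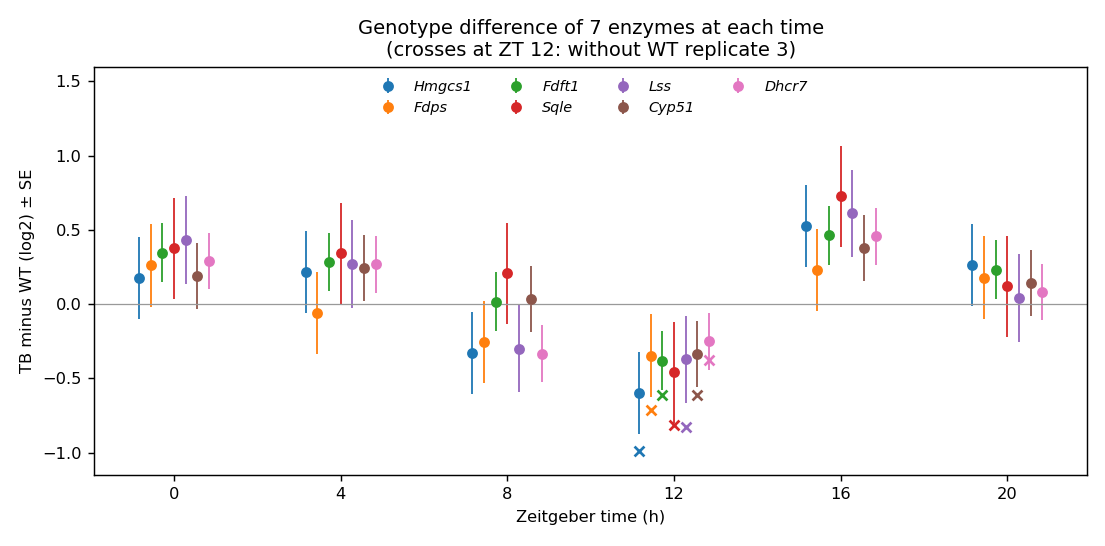
TB minus WT difference (log2, from the limma fit, with its SE, 3 arrays per group) of the 7 enzymes at each Zeitgeber time (h). Crosses at ZT 12 give the values without WT ZT 12 replicate 3. All 7 points lie below 0 at ZT 12 and above 0 at ZT 0, 16 and 20, and the crosses lie lower than the points.

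The 7 enzymes were also taken as a mean of centred log2 levels on each array. This mean was 0.38 ± 0.20, 0.46 ± 0.0523, −0.39 ± 0.400, −0.40 ± 0.135, 0.050 ± 0.205 and 0.21 ± 0.104 in TB from ZT 0 to ZT 20 (SD, n = 3). In WT it was 0.087 ± 0.257, 0.24 ± 0.130, −0.25 ± 0.341, −0.010 ± 0.561, −0.43 ± 0.422 and 0.061 ± 0.313. The TB means thus went from their highest to a low level between ZT 4 and ZT 8 and stayed there at ZT 12. TB ZT 8 replicate 1 did not share that low level, at 0.055. The WT means followed no such single trough. The highest array of all was TB ZT 0 replicate 1 at 0.55 and the lowest WT ZT 16 replicate 2 at −0.90. The SD within a group was larger in WT than in TB at 5 of the 6 times, all but ZT 8, a description of 3 arrays each.

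**Figure D4:**
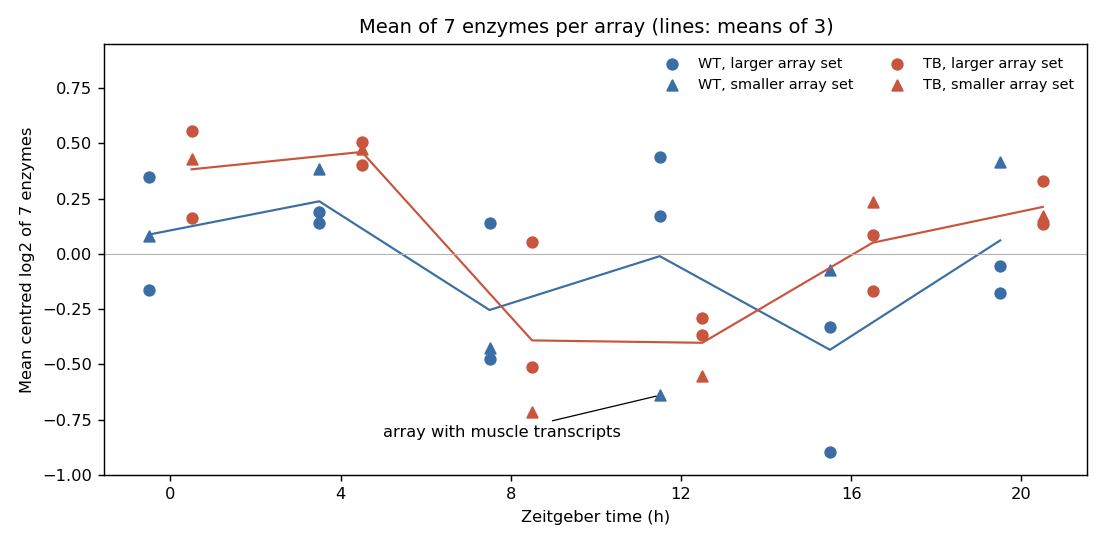
Mean of the centred log2 levels of 7 enzymes on each of 36 arrays against Zeitgeber time (h), WT in blue and TB in red, circles for the larger and triangles for the smaller array set; lines join means of 3 arrays. The TB arrays sit low at ZT 8 and ZT 12, except TB ZT 8 replicate 1 at 0.055. The WT arrays at ZT 12 run from −0.64, the array with muscle transcripts, to 0.44.

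Much of the variation lay between arrays of the same group, and there the enzymes moved together. Deviations from the 12 group means gave a Pearson r between 0.44 and 0.95 over the 21 pairs of enzymes, with a median of 0.77 (36 arrays, which share their RNA extract and their array set within each pair of values). The closest pair was Hmgcs1 and Fdft1, at 0.95. The median was 0.73 without the WT ZT 12 group and 0.82 with the array set removed as a block. Srebf2 followed the enzymes, with r from 0.45 to 0.87 and a median of 0.66. Insig2 did not follow them closely, with r from −0.012 to 0.34 and a median of 0.18. Over the 12 group means the picture for Insig2 was another, with r from 0.65 to 0.79 against single enzymes, since its daily course shares the high levels around lights on. For comparison, the median r of all 22180 genes with the enzyme mean within groups was −0.026, and 23 genes (0.104%) reached 0.7. Those 23 include the 7 enzymes, which are part of that mean, and Srebf2 (r = 0.76). An r with a mean is not the same measure as an r between single genes. The Kupffer cell markers (5 of 5 measured, mean level 6.64 to 8.38 in WT and 7.28 to 8.22 in TB) had r = 0.46 with the enzyme mean within groups. The muscle markers (5 of 5, 5.78 to 14.7 in WT and 5.93 to 6.28 in TB) had r = −0.56. That value leans on 1 array, WT ZT 12 replicate 3, at 14.7 against at most 6.71 on the others. The remaining marker lists had r from −0.37 (stellate cell) to 0.35 (hepatocyte), and no marker was at 0 on any array. WT ZT 12 replicate 3 was also the highest array of the stellate list (8.42 against at most 7.53). The stellate genes differed in sign, with Des at −0.52 and Col1a1 at −0.21 but Lrat at 0.27 and Reln at 0.21. The part of these marker levels in this co-variation was not tested.

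**Figure D5:**
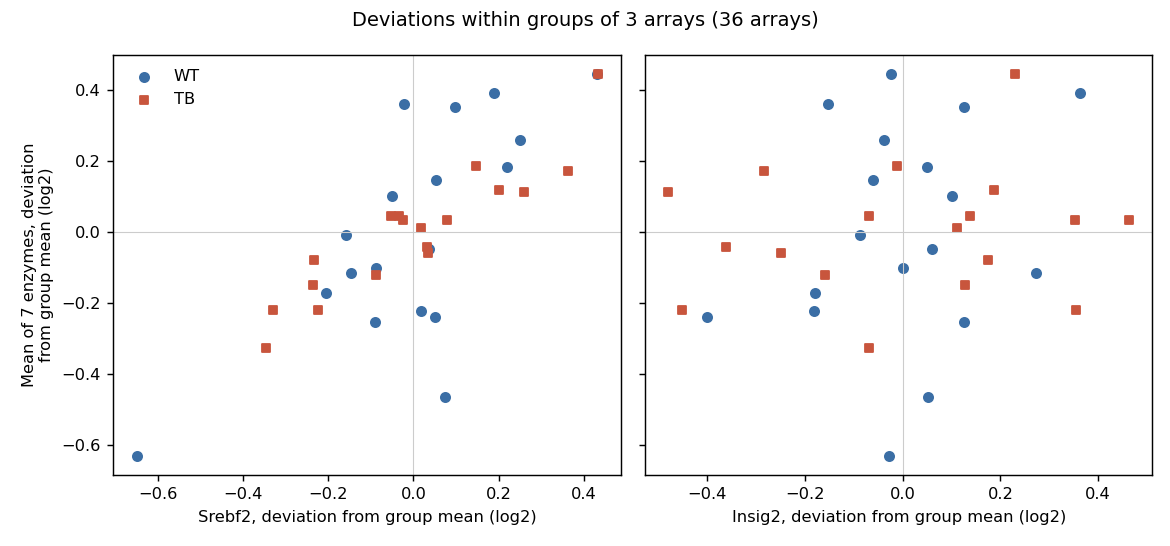
Deviation of each array from its group mean (log2): mean of the 7 enzymes on the vertical axis, Srebf2 (left) and Insig2 (right) on the horizontal axis, with WT as blue circles and TB as red squares, 36 arrays in all. The points rise with Srebf2 (r = 0.76) and scatter without a clear trend against Insig2 (r = 0.16).

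The other enzymes of the pathway were read from a list of 14, of which 11 had a probe set of their own. None passed the genotype test, and 2 of 11 were called rhythmic in TB and 0 of 11 in WT. Pmvk, phosphomevalonate kinase, had an amplitude of 0.47 ± 0.113 log2 in TB, peaking at ZT 21.5 (limma adjusted p = 0.0276), and 0.22 ± 0.113 in WT (adjusted p = 0.550). Mvd, the decarboxylase of the next step, had 0.66 ± 0.124 in TB, peaking at ZT 21.9 (adjusted p = 0.00229), and 0.26 ± 0.124 in WT (adjusted p = 0.471). Mvd averaged 7.22 ± 0.582 log2 at ZT 8 and 7.34 ± 0.543 at ZT 12 in TB (SD, n = 3), against 8.37 to 8.49 at the other TB times. Within groups, Hsd17b7 (r = 0.88), Msmo1 (0.86), Pmvk (0.84), Nsdhl (0.72), Mvd (0.62) and Mvk (0.56) followed the mean of the 7 enzymes. Tm7sf2 (0.41), Ebp (0.39), Lbr (0.28) and Sc5d (0.19), also sterol enzymes, had lower values, and Ggps1, which makes geranylgeranyl diphosphate, had r = 0.014.

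Of the genes that process and restrain SREBP, 8 of 9 were measured, with 2 called rhythmic in each genotype. Insig1, the INSIG gene that SREBP itself induces, had an amplitude of 0.44 ± 0.103 log2 in TB, peaking at ZT 20.9 (limma adjusted p = 0.0222), and 0.068 ± 0.103 in WT (adjusted p = 0.954). In TB it averaged 11.65 ± 0.224 at ZT 16 and 10.44 ± 0.275 at ZT 12 (SD, n = 3), and in WT all 6 means lay between 11.04 and 11.42. Insig2 peaked near ZT 23.5 in the same TB livers. Scap was called in WT, with 0.38 ± 0.059 and a peak at ZT 6.09 (adjusted p = 0.000117), and had 0.12 ± 0.059 in TB (adjusted p = 0.526). Rnf145, a ubiquitin ligase of SCAP, was called in WT at 0.31 ± 0.069 (adjusted p = 0.0105), and Faf2, which helps degrade INSIG1, in TB at 0.16 ± 0.042 (adjusted p = 0.0423). The differential rhythm test passed for none of the 8 (adjusted p from 0.985 for Scap). Srebf1, the sister gene that drives fatty acid synthesis, was lower in TB at 6 of 6 times, by −0.25 ± 0.085 log2 on average, and did not pass (adjusted p = 0.234).

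The genes of sterol uptake, transport and export that passed had their fitted maximum between ZT 8.28 and ZT 12.8, later in the light phase or at lights off. Of 7 uptake and transport genes 6 were measured, with 2 called rhythmic in WT and 1 in TB. Npc1, which exports cholesterol from lysosomes, had an amplitude of 0.62 ± 0.066 log2 in WT with a peak at ZT 9.56 (limma adjusted p = 2.33e-07) and 0.50 ± 0.066 in TB with a peak at ZT 9.02 (adjusted p = 1.27e-05). Tmem97, which binds NPC1, was called in WT at 0.23 ± 0.059 with a peak at ZT 12.8 (adjusted p = 0.0379). Of 9 genes of LXR signalling, efflux and esterification 6 were measured (no value for Nr1h2, Soat1 and Soat2), and 2 were called in both genotypes. Abcg5 had 0.66 ± 0.104 in WT and 0.52 ± 0.104 in TB, with peaks at ZT 9.62 and 9.17 (adjusted p = 0.00015 and 0.0041). Abcg8, its partner in pumping sterols into bile, had 0.76 ± 0.135 and 0.57 ± 0.135, with peaks at ZT 8.52 and 8.28 (adjusted p = 0.000911 and 0.0239). The called synthesis enzymes peaked between ZT 21.5 (Pmvk in TB) and ZT 2.93 (Hmgcs1 in WT), and the called exporters at ZT 8.28 to 9.62, the times at which the synthesis enzymes of TB were low. No gene of these lists was called in the genotype difference, at a single time, in the interaction or in differential rhythm.

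Some genes besides the members, Pmvk of the lists above included, had group means that ran close to those of the members. Over the 12 group means, among 1865 named genes with an SD of at least 0.2 log2, the highest r with the enzyme profile was 0.89 for Krt8, Nicn1, Cldn2 and Tab2, followed by Dusp10 and Pmvk at 0.87, Pstpip2 at 0.87 and Mmab at 0.86. The lowest were Kcnma1 at −0.90, Olfr1428 at −0.89, Gys2, the liver glycogen synthase, at −0.87, Mpzl2 at −0.86 and Coq10b at −0.84. For Insig2 the closest were Selenoi and Tars, both at 0.98, and Pomt1 at 0.98. For Srebf2 they were Cxcl13 at 0.83, Gas6 at 0.81 and Mid1 at 0.80. These r values describe 12 means that share arrays and time points, and the genes were picked for them.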

How the data were processed

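RNA of 36 mouse liver samples was measured on 1-colour Affymetrix arrays. Per the submitters' processing notes the deposited values were made with Affymetrix Expression Console 1.1.1 and PLIER 2.0, and they are linear intensity values for 41345 probe sets; settings, normalization between arrays and genome build were not given in the sources used here. The platform annotation gave 23521 probe sets a single symbol. Where a gene had several, the probe set with the highest mean was used, which left 22180 genes.

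Log2(intensity + 16) was fitted with limma 3.58.1 in R 4.3.3 (lmFit, eBayes), with 12 group means for the genotype contrasts and a mean, cosine and sine of 24 h per genotype for rhythms. P-values were adjusted by Benjamini-Hochberg over all genes, at 0.05. The code was tested on simulated data. The members, gene lists and rule for named genes (all members, each list gene called in any test, and the genes most like the members) were chosen with earlier results of these data known. The array sets came from the first component of within-group deviations of unnamed probe sets (28.6% of their variance). Alternatives covered scaling, filters, blocks, covariates and each array left out. Some genes and alleles are not reported here.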

Additional observations from a re-analysis of the deposited data

How the results depend on the processing

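The count of 0 members called was the same for the genotype difference, its values per time, the interaction and the differential rhythm under all alternatives run. The rhythmic members in WT were 1 with the larger array set only and 1 with only the arrays of that genotype, and between 1 and 2 without 1 array. Those in TB were 2 with the larger set only, 3 with Xist as a covariate, 3 with a 6-level time factor, 6 with median centring, with the dimmest genes removed and with the array set block, 7 with only the arrays of that genotype, and between 4 and 6 without 1 array; 2 of the 5 TB calls, Hmgcs1 and Insig2, passed in every setting. The replicate number as a block gave 2 in WT and 5 in TB and changed no call. Equal numbers were not taken as pairs, since the labels do not tie them. Of the 18 WT and TB pairs, 14 had a correlation of deviations over 0.1 (−0.052 to 0.41, median 0.16). The array sets do tie them: at every ZT, equally numbered WT and TB replicates lay in 1 set. The smaller set held replicate 3 at ZT 0 and ZT 12, replicate 1 at ZT 4 and ZT 16, and replicate 2 at ZT 8 and ZT 20. Because this number changes with ZT, the replicate block cannot stand in for the array set. A fit with equal numbers as pairs within each ZT was not tested. The sign of the small genotype difference reversed for Fdps with median centring (−0.024) and in 17 of 36 fits without 1 array (−0.060 to 0.050), for Srebf2 with the larger set only (−0.0075) and in 2 (−0.022 to 0.068), and for Hmgcs1 in 3 (−0.022 to 0.085). Over all genes, the genotype difference called 39, but 15 with a pseudocount of 1, 14 with Xist, 151 with the array set as a block and 1152 with the larger set only. The 6-level time factor left 596 rhythmic genes of 1431 in WT and 482 of 1099 in TB. The causes were not tested. Signals of all members lay above the pseudocount.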

Other observations

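Tmem97, a gene of sterol transport that SREBP-2 is known to induce, followed the synthesis enzymes between arrays of the same group (r = 0.84 over 36 arrays) but not over the 12 group means (r = −0.39). Its means ran from 9.13 ± 0.124 log2 at ZT 0 to 9.56 ± 0.336 at ZT 12 in WT and from 9.29 to 9.49 in TB (SD, n = 3). Insig2 had the opposite arrangement, with r = 0.16 within groups and 0.77 over group means. Srebf1 had an r of −0.044 with the enzyme mean within groups and −0.51 over group means. These are values from arrays that share extracts and array sets, with no test.

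At ZT 12 the difference (TB minus WT) was −0.80 ± 0.266 log2 for Mvd, −0.61 ± 0.197 for Msmo1 and −0.60 ± 0.196 for Insig1 (limma adjusted p = 0.559 for each). These genes were chosen after their values were seen. None of them passed, and the WT group there includes the array with muscle transcripts.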
